A study of Mus musculus with 14 samples.

Results

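The 10 genes described here belong to the receptor system for interleukin-3 (IL-3), granulocyte-macrophage colony-stimulating factor (GM-CSF) and interleukin-5 (IL-5), and were followed across sorted fractions of FDCPmix, a mouse haematopoietic progenitor cell line from bone marrow. The genes were the receptor chains Il3ra, Csf2ra, Csf2rb, Csf2rb2 and Il5ra, the kinase Jak2, the transcription factors Stat5a and Stat5b, and the feedback inhibitors Socs3 and Cish. They were chosen by name, with earlier results of these data known, and were found through the accession that the array files give for each probe. The array held 13 probes for them, all 13 were well above background on all 14 arrays, and all 10 genes were tested among 32475 genes. The cells were cultured in medium with horse serum and with IL-3 conditioned medium from the WEHI line. Every group, the unfractionated culture included, was thus grown on the ligand of one of these receptors, in the same maintenance culture. The cells were stained with antibodies and sorted by flow cytometry, and total RNA was measured on one-colour arrays. The 4 sorted fractions, Gr1+, Kit-Gr1-, Kit+Gr1-Sca1lo and Kit+Gr1-Sca1hi, had 3 biological replicates each. The unfractionated culture had 2. All groups come from a single cell line, and the labels do not say whether the Gr1+ fraction was also gated on Kit.

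The receptors for these cytokines pair a chain that is specific for the ligand, the alpha chain, with a beta chain that carries the signal. Il3ra, Csf2ra and Il5ra encode the alpha chains for IL-3, GM-CSF and IL-5. Csf2rb encodes the beta chain common to all of them, and the mouse has an additional, closely related beta chain gene, Csf2rb2, whose product serves IL-3. Ligand binding activates JAK2, which is bound to the beta chain, and JAK2 phosphorylates STAT5A and STAT5B, which then enter the nucleus. CISH and SOCS3 are induced by such signalling and dampen it. In bone marrow these receptors are carried by progenitors and by cells of the granulocyte and monocyte lineages, and the IL-5 receptor mainly by eosinophils and their precursors.

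STAT5 binds DNA at the motif TTCNNNGAA, which reads the same on both strands. The RefSeq promoter windows of build GRCm38.p6, from 250 bases before to 50 bases after a gene's start, were searched for it. For 9 of the 10 genes, all but Csf2rb, there were 11 windows, with a pair each for Stat5a and Stat5b. The motif was found in 3 of the 11 windows, those of Cish, Csf2rb2 and Socs3, and in 8.30% of all 32851 windows. The Cish window held 2 matches that do not overlap, and 0.457% of all windows held 2 or more. The stretches around the matches of Cish, a well known STAT5 target, and of Csf2rb2, the beta chain gene that serves IL-3, are shown 5′ to 3′, with the matches in capitals. The Cish stretch lies at chr9:107296609-107296678 on the plus strand and the Csf2rb2 stretch at chr15:78305702-78305786 on the minus strand.
Cish: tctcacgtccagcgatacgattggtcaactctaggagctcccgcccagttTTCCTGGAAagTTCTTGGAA
Csf2rb2: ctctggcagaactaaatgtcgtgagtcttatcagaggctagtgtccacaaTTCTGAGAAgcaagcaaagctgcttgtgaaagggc
In Cish the matches begin at bases 251 and 262 of the 300-base window, directly at the annotated start, and in Csf2rb2 the match begins at base 236. The array data say nothing of binding at these letters.

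Levels are given as log2 of the processed signal relative to the 75th percentile of the same array, so that 0 is the signal at that percentile and a difference of 1 is 2-fold. Array medians of the processed signal ranged from 122 to 5180. On 4 arrays, Kit+Gr1-Sca1hi replicate 3, Kit+Gr1-Sca1lo replicate 3, Gr1+ replicate 3 and unfractionated replicate 1, the signals were compressed, with a log2 interquartile range of 1.78 to 3.42 against 4.17 to 4.92 on the other 10. The sort labels were checked on genes of the sorting antigens. Ly6g, also listed for this check, was matched to no probe and could not be read. Kit was lower in Kit-Gr1- than in Kit+Gr1- cells, with a log2 difference of -2.20 ± 0.25 (SE) and an adjusted p of 0.00349. Ly6a, which encodes Sca1, was 4.14 ± 0.43 higher in Gr1+ than in Kit+Gr1- cells (adjusted p 0.000903), and Ly6c1, which encodes a protein that Gr1 antibodies can bind, was 6.73 ± 1.00 higher (adjusted p 0.00368). Between Sca1hi and Sca1lo cells Ly6a differed by 2.31 ± 0.49 in the direction of the label, without a call (adjusted p 1.00), and Kit in Gr1+ cells was 0.28 ± 0.25 above Kit+Gr1- cells (adjusted p 1.00). Unless another fit is named, adjusted p-values are from limma's moderated test over all 14 arrays, two-sided, with Benjamini-Hochberg adjustment over the 32475 genes. A gene was called at an adjusted p under 0.05 and a difference of at least 2-fold.

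Among the 10 genes, the GM-CSF receptor alpha chain in Gr1+ cells gave the only call of the 4 comparisons. Csf2ra stood 3.90 ± 0.78 (SE) above its mean in the 6 Kit+Gr1- arrays on the log2 scale, which is 14.9-fold, with an adjusted p of 0.0183. One of 10 genes was thus called between Gr1+ and Kit+Gr1- cells, where 2.02% of all genes tested were called (655 genes, 447 higher and 208 lower). Csf2rb2 and Jak2 lay higher and Stat5a lay lower on all 3 Gr1+ arrays than on all 6 Kit+Gr1- arrays, but none of these passed the test. Il5ra lay lowest in Kit-Gr1- cells, also without passing it. On the probe that stands for each gene, Il3ra, Csf2rb, Stat5b, Socs3 and Cish had overlapping arrays in all 4 comparisons. On the same probes, no gene had arrays set apart between the Sca1hi and Sca1lo cells. The share of all genes with arrays set apart is not given here, so these positions only describe the named genes.

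**Figure D1:**
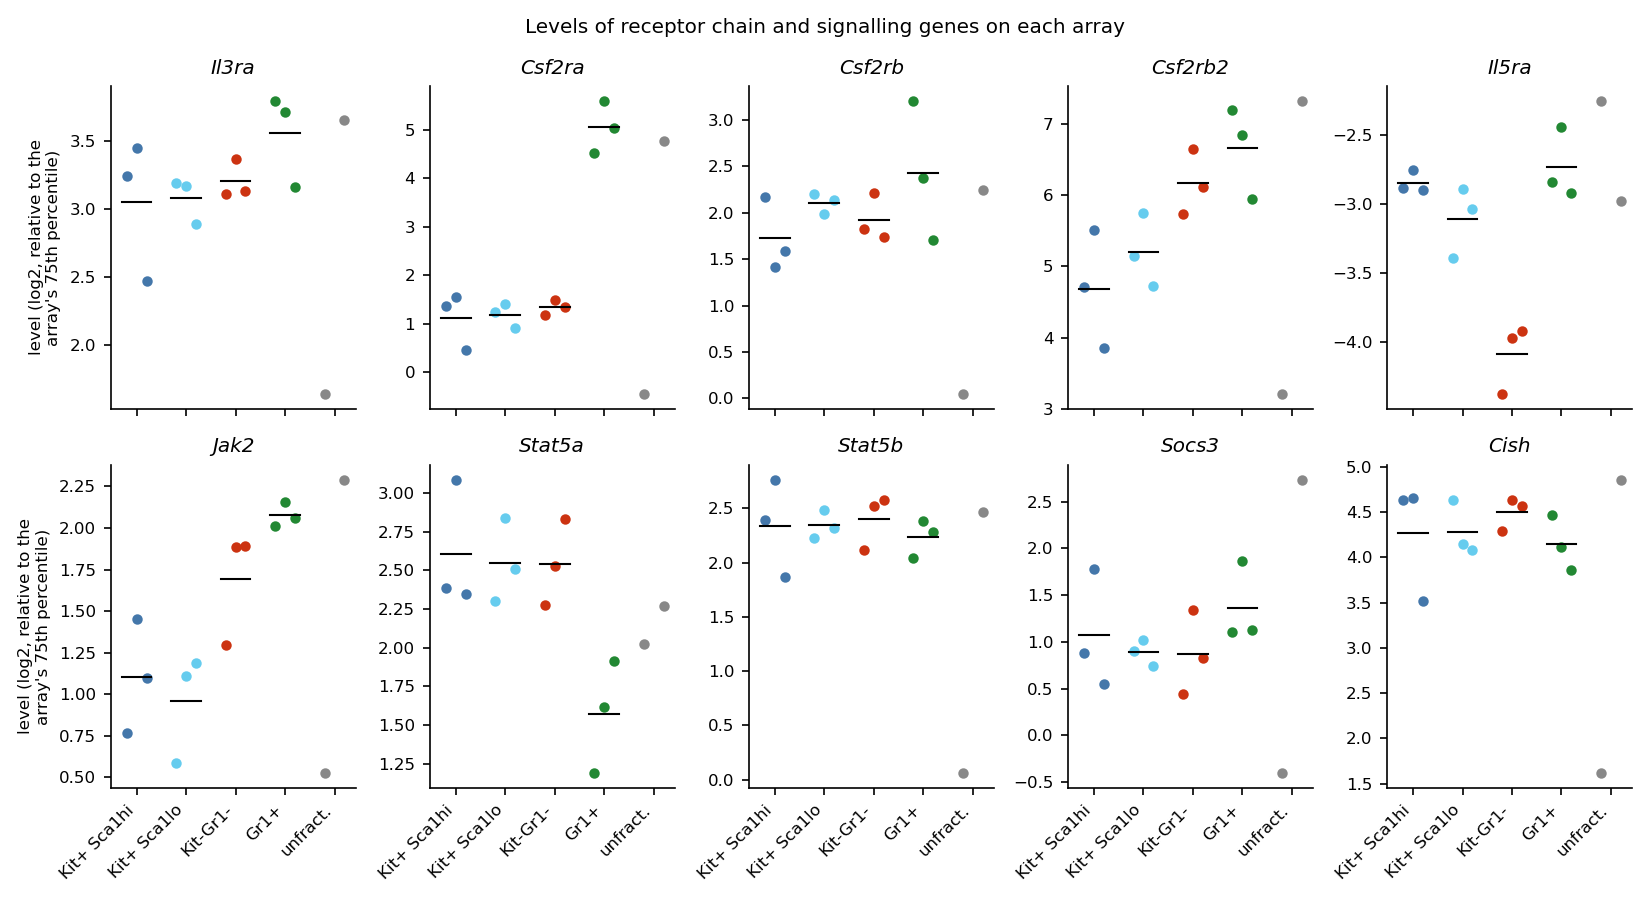
Levels of the 10 genes on each of the 14 arrays (vertical axis, log2 relative to the array's 75th percentile, with its own range in each panel), by sorted fraction or unfractionated culture (horizontal axis). Each point is an array and each bar is the mean of 3 replicates. Csf2ra lay between 4.52 and 5.61 in Gr1+ cells and at 1.54 or below on the other sorted arrays, and the unfractionated replicates lay far apart in most panels.

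Csf2ra was measured at 4.52, 5.61 and 5.04 on the Gr1+ arrays. In Kit+Gr1-Sca1hi cells it was at 1.37, 1.54 and 0.46, in Kit+Gr1-Sca1lo cells at 1.24, 1.41 and 0.91, and in Kit-Gr1- cells at 1.19, 1.48 and 1.35. The lowest Gr1+ array thus lay 2.97 above the highest Kit+Gr1- array, and the other 3 fractions overlapped with each other. Against Kit-Gr1- cells the Gr1+ difference was 3.72 ± 0.90 (13.1-fold) with a gap of 3.04 between the nearest arrays, and its adjusted p was 0.0646. No gene of the 10 was called in that comparison, where 1.61% of all genes were (522 genes, 334 higher and 188 lower). Within each slide that held both fractions, Csf2ra was higher in Gr1+ than in Kit+Gr1- cells by 3.21, 4.20 and 3.50, and than in Kit-Gr1- cells by 3.33, 4.13 and 3.69.

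The direction of the Csf2ra difference held in all 26 alternatives, from 3.60 to 4.17 against Kit+Gr1- cells, but its call did not hold in 5 of them. The adjusted p from limma was 0.206 after scaling on array medians and 0.0758 with the slide as a block. It was 0.0575, 0.160 and 0.0740 when Gr1+ replicate 1, 2 or 3 was left out, which leaves 2 Gr1+ arrays, and over all 26 alternatives it ran from 9.91e-08 to 0.206. Both unfractionated arrays entered the estimate of the spread, and for Csf2ra they read -0.46 and 4.78. Without them, on the 12 sorted arrays alone, Csf2ra was called against Kit-Gr1- cells too, with the same difference of 3.72 and an adjusted p of 1.78e-05. It was also called there without unfractionated replicate 1 or replicate 2, with adjusted p-values of 1.60e-05 and 2.87e-05, and without the 4 compressed arrays (3.72, adjusted p 0.000262). In all, Csf2ra was called against Kit-Gr1- cells in 7 of the 26 alternatives and not in 19. Its adjusted p there ran from 1.34e-07 to 0.632.

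The Gr1+ fraction differed from the others in lineage markers as well. Of the neutrophil markers tested, 7 of 10 were called higher in Gr1+ than in Kit+Gr1- cells, where 2.02% of all genes were called in either direction. Of the eosinophil markers tested it was 6 of 7, and of the monocyte and macrophage markers tested 4 of 8. The listed names Ear2, Siglec5, Emr1 and Cd68 matched no probe. The summed signal of the eosinophil markers, in units of the array's 75th percentile, was 107 to 278 on the Gr1+ arrays, 1.26 to 3.96 on the Kit+Gr1- arrays, 1.19 to 3.85 on the Kit-Gr1- arrays, and 7.65 and 219 in the unfractionated replicates. For the neutrophil markers it was 1045 to 1491 in Gr1+ cells, 99.99 to 340 in Kit+Gr1- cells and 64.9 to 217 in Kit-Gr1- cells. Mpo, Ctsg and S100a8, the neutrophil markers not called, weigh most in this sum, with mean levels of 9.07, 8.47 and 7.33 in Gr1+ cells. For the monocyte and macrophage markers the sum was 30.8 to 50.8 in Gr1+ cells and at most 5.50 on the other sorted arrays. Of the mast cell and basophil markers, 1 of 9 was called higher in Gr1+ than in Kit+Gr1- cells. Their sum was 192 to 411 in Gr1+ cells, at most 180 in Kit+Gr1- cells and 121 to 281 in Kit-Gr1- cells. All 7 eosinophil markers tested were well above background on every array, those of the other fractions included. The part of these cells in the Csf2ra level was not tested, and in a sorted bulk fraction a different share of cells that carry a transcript and a different amount of it per cell cannot be told apart.

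The IL-3 receptor alpha chain, Il3ra, differed little among the fractions of cells that grow on IL-3. It was at 3.24, 3.45 and 2.47 in Kit+Gr1-Sca1hi cells, at 3.19, 3.17 and 2.89 in Kit+Gr1-Sca1lo cells and at 3.11, 3.36 and 3.13 in Kit-Gr1- cells. The Gr1+ arrays were at 3.80, 3.72 and 3.16, the highest mean of the sorted fractions, but their lowest array lay among those of the other fractions. Its difference between Gr1+ and Kit+Gr1- cells was 0.49, with a 95% interval of -0.35 to 1.33, so a 2-fold difference is within the interval.

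The IL-5 receptor alpha chain, Il5ra, had a low processed signal, down to 51.0 on Kit-Gr1- replicate 3, an array with a median background of 36. Processed signal and background are different measures. By the scanner's test Il5ra was well above background on every array. It was at -4.38, -3.97 and -3.92 in Kit-Gr1- cells. In Kit+Gr1-Sca1hi cells it was at -2.88, -2.75 and -2.90, in Kit+Gr1-Sca1lo cells at -3.39, -2.89 and -3.03, and in Gr1+ cells at -2.84, -2.44 and -2.92. All 3 Kit-Gr1- arrays therefore lay below all other sorted arrays, while the Gr1+ and both Kit+Gr1- fractions overlapped. The difference from Kit+Gr1- cells was -1.12 ± 0.32 (adjusted p 0.854, unadjusted p 0.00418 in the limma fit), and that of Gr1+ from Kit-Gr1- cells was 1.36 ± 0.37 (adjusted p 0.120). Within slides Il5ra was lower in Kit-Gr1- than in Kit+Gr1- cells by similar amounts, with differences of -1.24, -1.08 and -1.17.

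The median of all genes lay at -0.25 between Kit-Gr1- and Kit+Gr1- cells, and at 0.07 after scaling on array medians, and the Il5ra difference lay below the median of all genes under both. Il5ra was called between Gr1+ and Kit-Gr1- cells on the 12 sorted arrays alone (1.36, adjusted p 0.0276), without unfractionated replicate 1 or 2 (adjusted p 0.0255 and 0.0291), without the 4 compressed arrays (1.45, adjusted p 0.0132) and with array weights (1.43, adjusted p 0.000348). Over all 26 alternatives its adjusted p in that comparison ran from 0.000348 to 1.00. Against Kit+Gr1- cells it met both thresholds in none of the 26 alternatives, with differences from -1.35 to -0.38. Where Kit-Gr1- cells were lowest for Il5ra, erythroid markers were higher in them. Of those tested, 5 of 9 were called against Kit+Gr1- cells, where 0.0677% of all genes were, and the listed Hbb-b1 matched no probe. Their summed signal was 36.4 to 57.7 in Kit-Gr1- cells and at most 16.0 on the other sorted arrays. Of 6 megakaryocyte markers 1 was called higher in the same comparison, Gp1ba, a platelet glycoprotein (1.96 ± 0.25, adjusted p 0.00678), and their summed signal was 55.9 to 104 in Kit-Gr1- cells and at most 41.2 on the other sorted arrays. The part of either list in the Il5ra level was not tested.

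**Figure D2:**
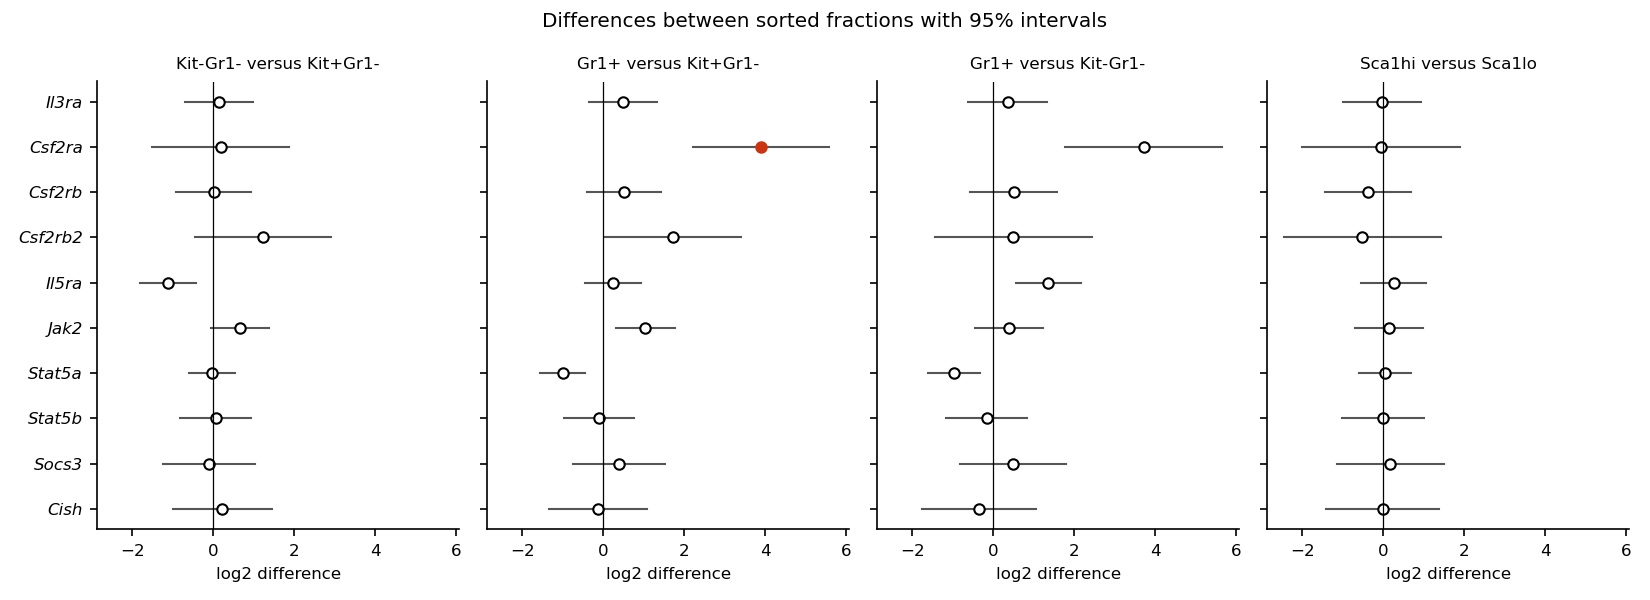
Log2 differences (horizontal axis) of the 10 genes (vertical axis) in the 4 comparisons, each the first fraction minus the second, with 95% intervals from the fit over all 14 arrays. The filled point, Csf2ra in Gr1+ against Kit+Gr1- cells at 3.90, is the only one that was called, and the first and second panel share the 6 Kit+Gr1- arrays.

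The beta chain gene Csf2rb2 had its lowest values in Kit+Gr1- cells. Its levels were 4.71, 5.51 and 3.85 in Kit+Gr1-Sca1hi cells and 5.14, 5.74 and 4.73 in Kit+Gr1-Sca1lo cells. They were 5.74, 6.65 and 6.11 in Kit-Gr1- cells and 7.20, 6.84 and 5.94 in Gr1+ cells. All Gr1+ arrays lay above all Kit+Gr1- arrays, by a gap of 0.20, while Kit-Gr1- arrays overlapped with both, with the Kit+Gr1- arrays by less than 0.01. The difference of Gr1+ from Kit+Gr1- cells was 1.71 ± 0.78 (3.28-fold, adjusted p 0.561), and that of Kit-Gr1- from Kit+Gr1- cells was 1.22 ± 0.78 (2.33-fold, adjusted p 0.906). Within the 3 slides the first was 2.28, 1.10 and 0.43 and the second was 0.82, 0.91 and 0.61.

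The spread of Csf2rb2 was wide, with 3.20 and 7.32 in the unfractionated replicates. Its difference between Gr1+ and Kit+Gr1- cells was called in 7 of the 26 alternatives, all in the same direction. These were the 12 sorted arrays alone (1.71, adjusted p 0.0148), leaving out unfractionated replicate 1 (adjusted p 0.0146) or replicate 2 (adjusted p 0.0167), leaving out the 4 compressed arrays (1.75, adjusted p 0.00632), array weights (1.84, adjusted p 0.000375), quantile normalization (1.50, adjusted p 0.0135) and the deposited values without scaling (1.53, adjusted p 3.22e-05). With array weights, the Kit-Gr1- cells were also called higher than Kit+Gr1- cells (1.46, adjusted p 0.000473). Over all 26 alternatives the adjusted p ran from 3.22e-05 to 1.00 in the first comparison and from 0.000473 to 1.00 in the second.

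Csf2rb, the common beta chain, was read by 2 probes that did not give the same answer. The brighter probe, which stands for the gene, was at 2.17, 1.41 and 1.59 in Kit+Gr1-Sca1hi, 2.21, 1.98 and 2.14 in Kit+Gr1-Sca1lo, 1.83, 2.21 and 1.74 in Kit-Gr1- and 3.21, 2.37 and 1.70 in Gr1+ cells. The single array at 3.21 stood above the rest, and the difference between Gr1+ and Kit+Gr1- cells was 0.51, with a 95% interval of -0.41 to 1.43. The dimmer probe was at -0.58, 0.07 and -0.25, at -0.38, 0.00 and -0.47, at -0.01, 0.96 and 0.62, and at 1.79, 1.33 and 0.96 in the same order of fractions. On this probe all Gr1+ arrays lay above all other sorted arrays, with less than 0.01 between the nearest Gr1+ and Kit-Gr1- arrays.

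In a fit of all probes in place of genes, the dimmer Csf2rb probe was 1.63 ± 0.33 higher in Gr1+ than in Kit+Gr1- cells (adjusted p 0.0195), which passed the thresholds of a call. With the mean of both probes, the difference of Csf2rb was 1.07 and was not called. Over the 12 sorted arrays, the dimmer Csf2rb probe had a Pearson correlation of 0.89 with the Csf2rb2 probe and of 0.51 with the brighter Csf2rb probe, and the brighter Csf2rb probe had one of 0.54 with Csf2rb2. These are descriptions of arrays that share scaling and fractions. Csf2rb and Csf2rb2 are closely related, so a probe for one may bind transcripts of the other. To that extent the values of both genes are uncertain. Whether these probes bind transcripts of both genes was not tested.

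**Figure D3:**
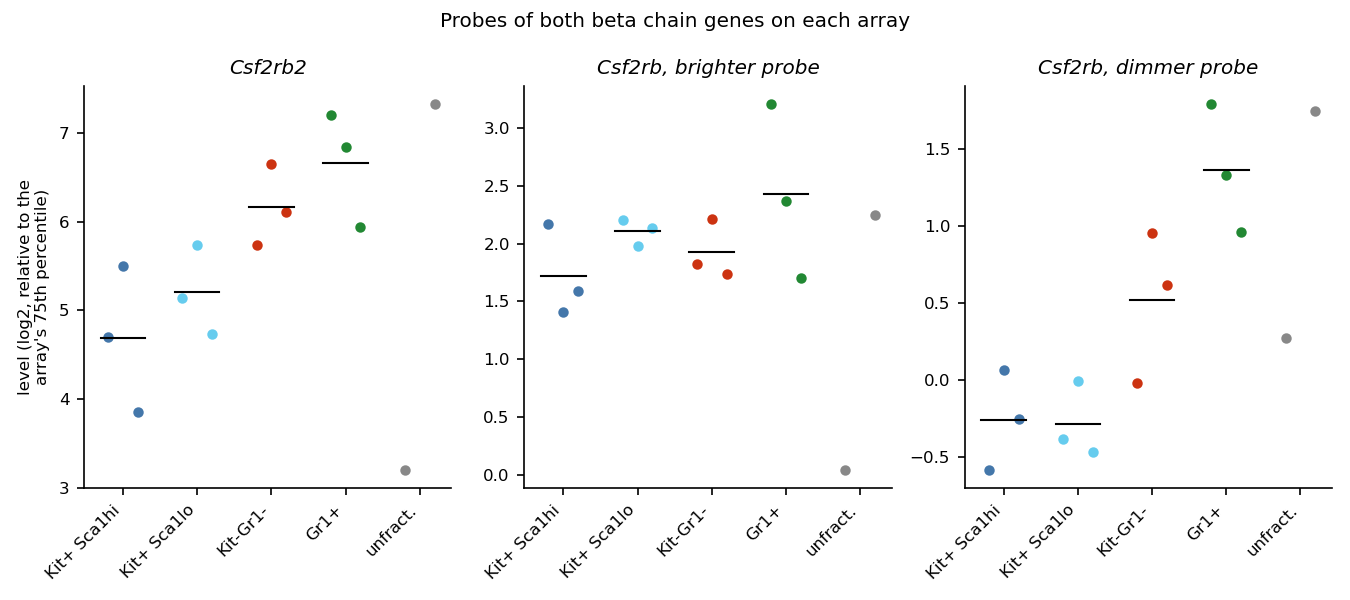
Levels of the Csf2rb2 probe and of both Csf2rb probes on each array (vertical axis, log2 relative to the array's 75th percentile, with its own range in each panel), by fraction. Each point is an array and each bar the mean of 3 replicates. The dimmer Csf2rb probe, at 0.96 to 1.79 in Gr1+ cells and at 0.07 or below in Kit+Gr1- cells, shows a difference of 1.63 where the brighter one shows 0.51.

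Jak2, the kinase that the beta chains carry, was higher on every Gr1+ array than on every other sorted array. It was at 2.01, 2.15 and 2.06 in Gr1+ cells and at 1.30, 1.88 and 1.89 in Kit-Gr1- cells. In Kit+Gr1-Sca1hi cells it was at 0.77, 1.45 and 1.10, and in Kit+Gr1-Sca1lo cells at 0.59, 1.11 and 1.19. The difference between Gr1+ and Kit+Gr1- cells was 1.04 ± 0.33 (2.06-fold, adjusted p 0.197), that between Kit-Gr1- and Kit+Gr1- cells 0.66 ± 0.33 (adjusted p 0.906), and that between Gr1+ and Kit-Gr1- cells 0.39 ± 0.39 (adjusted p 0.956). Within slides, Gr1+ cells were 1.33, 1.04 and 0.61 above Kit+Gr1- cells.

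A second, dimmer Jak2 probe ranged from -4.89 to -2.38 on the sorted arrays. It gave a difference of 0.60 ± 0.58 between Gr1+ and Kit+Gr1- cells, whose arrays overlapped. On this probe the highest Kit+Gr1-Sca1lo array, at -4.06, lay just below the lowest Gr1+ and Kit+Gr1-Sca1hi arrays, both at -4.01. Sca1hi minus Sca1lo was 1.00 ± 0.67 there, without a call. The Jak2 difference from Kit+Gr1- cells was called in 5 of the 26 alternatives. These were the 12 sorted arrays alone (1.04, adjusted p 0.00553), the fits without unfractionated replicate 1 (adjusted p 0.00538) or replicate 2 (adjusted p 0.00618), the fit without the 4 compressed arrays (1.10, adjusted p 0.0197), and array weights (1.29, adjusted p 0.000179). Over all 26 its adjusted p ran from 0.000179 to 1.00.

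Stat5a and Stat5b are activated by the same receptors, and neither was called in the fit over all 14 arrays. Stat5a was at 1.19, 1.62 and 1.91 in Gr1+ cells, below every other sorted array. It was at 2.38, 3.09 and 2.34 in Kit+Gr1-Sca1hi, at 2.30, 2.84 and 2.51 in Kit+Gr1-Sca1lo and at 2.28, 2.53 and 2.83 in Kit-Gr1- cells, which overlapped fully. The difference was -1.01 ± 0.26 from Kit+Gr1- cells (adjusted p 0.0749) and -0.97 ± 0.30 from Kit-Gr1- cells (adjusted p 0.198). Within slides the Gr1+ arrays differed from Kit+Gr1- arrays by -1.15, -1.23 and -1.17.

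The Stat5a difference from Kit+Gr1- cells passed as a call in 6 of the 26 alternatives. They were the slide block (-1.17, adjusted p 0.00816), the replicate number as a block (-1.01, adjusted p 0.0441), the 12 sorted arrays alone (adjusted p 0.0133), the fits without unfractionated replicate 1 (adjusted p 0.0130) or replicate 2 (adjusted p 0.0147), and the fit without the 4 compressed arrays (-1.25, adjusted p 0.0118). Over all 26 the adjusted p ran from 0.00139 to 1.00, and the difference from -1.25 to -0.81. Against Kit-Gr1- cells it was called in 1 of 26, without the 4 compressed arrays (-1.14, adjusted p 0.0264).

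Stat5b was at 2.39, 2.76 and 1.87 in Kit+Gr1-Sca1hi, at 2.23, 2.49 and 2.32 in Kit+Gr1-Sca1lo, at 2.11, 2.52 and 2.57 in Kit-Gr1- and at 2.04, 2.39 and 2.28 in Gr1+ cells. All 4 fractions overlapped. Its difference between Gr1+ and Kit+Gr1- cells was -0.10, with a 95% interval of -0.98 to 0.77, and its second probe gave 0.16 ± 0.24 there. The difference between the Stat5a and the Stat5b response was not tested.

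The feedback inhibitors did not separate the fractions. Cish was at 4.63, 4.65 and 3.52 in Kit+Gr1-Sca1hi, at 4.63, 4.14 and 4.08 in Kit+Gr1-Sca1lo, at 4.29, 4.63 and 4.57 in Kit-Gr1- and at 4.47, 4.11 and 3.86 in Gr1+ cells. Socs3 was at 0.88, 1.78 and 0.55, at 0.90, 1.02 and 0.75, at 0.44, 1.34 and 0.82, and at 1.11, 1.86 and 1.12 in the same order. For both genes the arrays of each fraction overlapped with those of its neighbours in the order of means. Between Gr1+ and Kit+Gr1- cells the 95% interval was -1.34 to 1.09 for Cish and -0.75 to 1.52 for Socs3, so differences of 2-fold are within both.

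The Kit-Gr1- cells had no call among the 10 genes against Kit+Gr1- cells, with 0.0677% of all genes called (22 genes, 18 higher and 4 lower). Apart from Il5ra, Csf2rb2 and Jak2, the other 7 genes differed there by less than 1 SE on the probes that stand for them, from -0.11 to 0.22. The dimmer Csf2rb probe was 0.79 ± 0.33 higher in Kit-Gr1- than in Kit+Gr1- cells in the fit of all probes, without a call. Between Sca1hi and Sca1lo cells, none of the 10 was called, and 0% of all genes were. In that limma fit, 59 genes had an unadjusted p under 0.05. On the probes that stand for the 10 genes, the differences ran from -0.52 for Csf2rb2 to 0.26 for Il5ra, all under 1 SE. The second Jak2 probe lay outside this range, at 1.00 ± 0.67. The 95% interval of Sca1hi minus Sca1lo was narrowest for Stat5a, at -0.59 to 0.70, and widest for Csf2ra, at -2.01 to 1.89.

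For 9 of the 10 genes, all but Stat5a, the unfractionated replicates lay further apart than the replicates of any sorted fraction. Replicate 2 had 4.78 for Csf2ra, 7.32 for Csf2rb2 and 2.29 for Jak2, within or above the range of the Gr1+ arrays for all of them, and 2.27 for Stat5a, above that range. Replicate 1, one of the compressed arrays, had -0.46, 3.20, 0.53 and 2.03. It was below every sorted array for Il3ra (1.64), Csf2ra, Csf2rb (0.04), Csf2rb2, Jak2, Stat5b (0.06), Socs3 (-0.41) and Cish (1.62), and above every sorted array for the dim Il5ra (-2.25). These low positions depend on the scaling, as the 75th percentile of this array was 9465 against 700 to 1929 on the others. Before scaling, its signals for Il3ra, Csf2rb, Jak2, Stat5b, Socs3 and Cish were the highest of all 14 arrays. For Csf2ra and Csf2rb2 they lay within the range of the other arrays. No comparison was made with this group.

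**Figure D4:**
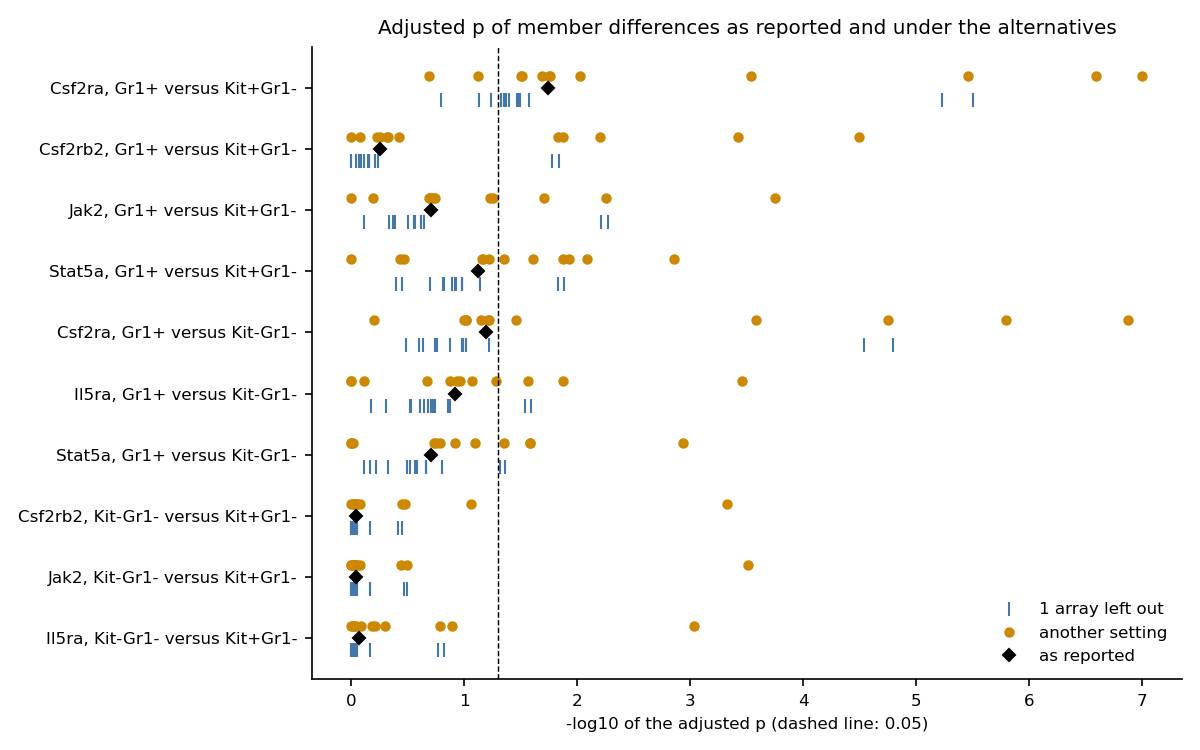
Adjusted p-values (horizontal axis, as -log10, with a dashed line at 0.05) of 10 differences as reported (black), under 12 alternatives (ochre) and with each of the 14 arrays left out in turn (blue). A point to the right of the line also needs a 2-fold difference to be called. The Csf2ra difference between Gr1+ and Kit+Gr1- cells lies right of the line in 21 of 26 alternatives.

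The wider pathway was described by a list of 63 genes, of which 62 were tested: ligands, other kinases, adaptors and phosphatases, the lipid kinase arm, other STATs, other feedback genes and known response genes. Between Gr1+ and Kit+Gr1- cells 3 of 62 were called, all higher, against the 2.02% of all genes, and their median difference was 0.13 against -0.05 over all genes. Among them, Pik3cb, a catalytic subunit of phosphoinositide 3-kinase, was 1.95 ± 0.37 higher (adjusted p 0.0132), and Bcl6, a transcriptional repressor, was 1.83 ± 0.31 higher (adjusted p 0.00747).

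Between Gr1+ and Kit-Gr1- cells 2 of 62 were called, both higher, among them Bcl6 (1.72 ± 0.36, adjusted p 0.0282). Between Kit-Gr1- and Kit+Gr1- cells none of the 62 was called, with a median of 0.06 against -0.25 over all genes. The ligand genes Il3, Csf2 and Il5, the 12 adaptors and phosphatases tested, the 5 other STATs and the 12 other feedback genes gave no call in any of these comparisons. Against Kit+Gr1- cells the Pik3cb call was lost in 7 of 26 alternatives: with array medians (adjusted p 0.298), quantile normalization (0.395), the deposited values (0.576), the mean of the gene's probes (0.262) and the slide block (0.0514), and without Gr1+ replicate 2 (0.151) or 3 (0.0709). The Bcl6 call there was lost in 4 of 26, with array medians (adjusted p 0.147), quantile normalization (0.0790) and the deposited values (0.600), and without Gr1+ replicate 2 (0.0930). The Bcl6 call against Kit-Gr1- cells was lost in 10 of 26 alternatives, 6 of which left out 1 array: Kit+Gr1-Sca1lo replicate 1 (adjusted p 0.0519), Kit-Gr1- replicate 1, 2 or 3 (0.135, 0.0773 and 0.146) and Gr1+ replicate 2 or 3 (0.207 and 0.112).

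For each receptor chain, the genes with the most similar pattern over the 12 sorted arrays were found by Pearson correlation among 16154 genes with a symbol. For Csf2ra they were Dgat1 (0.993), Dstn (0.992) and Hvcn1 (0.992), which were themselves 2.65, 2.87 and 2.52 higher in Gr1+ than in Kit+Gr1- cells. For Csf2rb2 they were Aff4 (0.975), Creb3 (0.970) and H1f2 (0.968). For Il3ra they were Glipr1 (0.970), Creg1 (0.966) and Natd1 (0.954), for Csf2rb Krt16 (0.946), Lrrc3 (0.938) and Olfr1 (0.933), and for Il5ra Dusp2 (0.913), Maged2 (0.911) and Plppr3 (0.905). These values describe 12 arrays that share scaling, slides and a sort, and carry no test.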

How the data were processed

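The 14 one-colour arrays of total RNA comprised 3 of each of 4 sorted fractions and 2 of the unfractionated culture, which the series describes as biological replicates. The deposited scanner files hold the spot intensity as processed by Agilent Feature Extraction 10.1.1.1, per the file headers, with flags for background, outliers and saturation, and name the design build mm8. The deposited value table holds log2 of the same processed signal, unscaled (largest deviation 5e-09), and served as an alternative. The mean signal was not analysed here, so the normexp alternative used the median signal.

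From 43379 spots per array, control spots and 2098 outlier spots over all arrays were left out, and spots were averaged to 41174 probes. The log2 signal minus each array's 75th percentile was the unit. A probe was kept if well above background on 3 or more arrays (40292 probes). Where a gene had several such probes, the one brightest on average over all arrays stood for it. Accessions matched a RefSeq symbol for 23374 probes, and 32475 genes were tested, 16460 with a symbol. limma 3.58.1 in R 4.3.3 fitted 5 groups over 14 arrays with 9 residual degrees of freedom and a trend on the mean. The script was tested on simulated data. The 95% intervals cover the spread among these arrays, and their number limits the precision.

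The 10 genes, the pathway and marker lists and the 4 compressed arrays were chosen with earlier results of these data known. All 10 genes are named, with the called genes of the pathway lists, 1 of which is not reported here, and the 3 genes most like each receptor chain. Replicate numbers come from the labels. Deviations from the group means correlated by 0.62 to 0.87 in 9 same-numbered pairs among the Gr1+, Sca1hi and Sca1lo fractions, 5 of them on one slide. Sca1hi with Sca1lo gave 3 of these pairs (0.68 to 0.85). In these fractions replicate 3 is a compressed array. Their other arrays also correlated across different numbers (0.31 to 0.66), so pairing by number and compression cannot be told apart. Same-numbered correlations were -0.23 to 0.21 in Kit-Gr1- against Kit+Gr1- (6 pairs). They were 0.04 to 0.19 in Gr1+ against Kit-Gr1- (3 pairs), and Kit-Gr1- has no compressed array. The fit had no block, and the replicate block was an alternative. The alternatives were 12 other settings and each of 14 arrays left out. Protein and probe sequences were not used here.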

Additional observations from a re-analysis of the deposited data

How the results depend on the processing

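None of the 13 differences of the 10 genes that were at least 1 SE changed direction in any of the 26 alternatives, and 17 of the 27 smaller ones did in at least 1. The values of members whose call changed stand in the report, with 1 exception. Csf2ra was also called between Gr1+ and Kit-Gr1- cells with array weights and with the deposited values, for which only the range is given. The counts of genes called between Kit-Gr1- and Kit+Gr1-, Gr1+ and Kit+Gr1-, Gr1+ and Kit-Gr1-, and Sca1hi and Sca1lo cells were 22, 655, 522 and 0. On the 12 sorted arrays alone they were 107, 1346, 1267 and 0, without the 4 compressed arrays 102, 2067, 1858 and 0, and with array weights 864, 2213, 1985 and 15. With array medians they were 19, 203, 192 and 0, and the 203 held 174 higher and 29 lower calls against 447 and 208. The first count was 13 after quantile normalization (12 higher and 1 lower, against 18 and 4) and 13 with the deposited values. Leaving out 1 array gave 0 to 111, 124 to 1354 and 157 to 1276 calls in the first 3 comparisons. The lowest counts came without Kit-Gr1- replicate 3 for the first and without Gr1+ replicate 2 for the others, and the highest without unfractionated replicate 1. With Kit-Gr1- replicate 3 left out, the Kit-Gr1- comparison had no call in the limma fit. The Kit difference was not called there either (adjusted p 0.0634), nor with array medians (0.963), quantile normalization (0.177) or the deposited values (0.255).

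With the replicate block the counts were 31, 801, 675 and 0. Stat5a (-1.01, adjusted p 0.0441) was then called between Gr1+ and Kit+Gr1- cells. Csf2ra (3.72, adjusted p 0.0348) was called between Gr1+ and Kit-Gr1- cells, where same-numbered arrays correlated only weakly. The block changed no other call of the 10 genes, and 4 of 62 pathway genes were called between Gr1+ and Kit+Gr1- cells. Same-numbered arrays shared a slide in 11 of 18 pairs. The median of all genes between Kit-Gr1- and Kit+Gr1- cells was -0.25, and 0.07 with array medians, 0.0023 after quantile normalization, -0.14 after normexp and -0.48 with the deposited values. The cause of these changes was not tested. The alternatives were run on genes, not on the dimmer Csf2rb probe. Low signal limits Il5ra, and 3 replicates a fraction limit all of it.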
